A study of Mus musculus with 8 samples.

Results

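The mouse genome holds 39 Hox genes in 4 clusters, Hoxa on chromosome 6, Hoxb on chromosome 11, Hoxc on chromosome 15 and Hoxd on chromosome 2 of the GRCm38.p6 RefSeq table. Of these genes 36 were measured among 22180 genes in all. The members were chosen by symbol alone, a cluster letter followed by a number, and each was read by its brightest probe set that carried 1 gene symbol. The other 3 had no such probe set and were not analysed here. Of the 36, 9 were Hoxa genes, 10 Hoxb, 9 Hoxc and 8 Hoxd.

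Whole kidneys of 8 mouse embryos at stage E14.5, counted in days of embryonic life, were compared on 1-colour arrays, 4 with the genotype Grb2 UB-cKO, here Grb2_cKO, and 4 wild-type controls of the same litter. GRB2 is an adaptor protein that carries signals from receptor tyrosine kinases to the RAS pathway, and UB is read here from the series title as ureteric. The knockout is limited by its name to the ureteric epithelium, but the RNA came from all cells of both kidneys of an embryo. The sources used here do not give the Cre driver. Values are log2 probe set values, and differences are Grb2_cKO minus control with the standard error (SE) of the limma model.

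Hox genes encode homeodomain transcription factors that give cells positional identity along the body axis. Within a cluster they are numbered from the 3′ to the 5′ end, low numbers being used further towards the head, and genes with the same number in different clusters are paralogs that arose from 1 ancestral gene. In the kidney, the group 11 genes act together with EYA1 and PAX2 in the metanephric mesenchyme to switch on Six2 and Gdnf. The group 10 genes act in the stroma, and Hoxb7 is expressed in the nephric duct and ureteric bud.

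The targeted gene was lower in the Grb2_cKO kidneys, at 8.20 ± 0.12 against 8.65 ± 0.03 for Grb2 in controls (SD, n = 4 each, adjusted p = 0.0017 in limma). The controls differed among themselves in Y-linked genes: averaged over Uty, Kdm5d and Eif2s3y they stood at 4.09 to 4.24 in control replicates 1, 2 and 4, at 9.94 in control replicate 3 and at 9.94 to 10.1 in Grb2_cKO. Read by these levels, every Grb2_cKO embryo was male, as was replicate 3 of the controls, while the remaining controls were female. Sex was thus largely tied to genotype, and every Hox call rests on a comparison unbalanced in sex. The comparison was therefore also fitted with that mean as a covariate (the Y-linked covariate), which stands for sex. In that fit 15 of the 17 Hox calls were lost, as given further down. Array medians were 6.61 to 6.72, and the number of arrays limits the precision. No detection calls were used here, so a dim probe set could not be told from an absent transcript, and levels are compared between embryos for 1 gene at a time.

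The microRNA genes that lie inside the Hox clusters gave the sharpest contrast between clusters, so their mature sequences are shown first. MicroRNAs are short RNAs that repress messenger RNAs matching their seed, bases 2 to 8, and miR-196 is known to direct cleavage of the Hoxb8 messenger RNA. In the sequences from RefSeq (GRCm38.p6), 5′ to 3′, capitals mark the seed.
miR-196a-5p: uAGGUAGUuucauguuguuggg
miR-196b-5p: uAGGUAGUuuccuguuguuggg
miR-10a-5p: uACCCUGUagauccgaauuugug
miR-10b-5p: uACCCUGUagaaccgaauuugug
miR-615-3p: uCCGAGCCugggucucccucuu
The mature miR-196a-5p is made from 2 genes with an identical product, Mir196a-1 between Hoxb13 and Hoxb9 (chr11:96265187-96265208, plus strand) and Mir196a-2 between Hoxc10 and Hoxc9 (chr15:102973365-102973386, plus strand). Counted from the 5′ end, miR-196b-5p of the Hoxa cluster differs from it by A12C, and miR-10b-5p of the Hoxd cluster differs from miR-10a-5p of the Hoxb cluster by U12A, both outside the seed. miR-615-3p comes from Mir615, which lies inside Hoxc5 (chr15:103014969-103014990, plus strand).

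The probe set for Mir196a-1 read 8.18, 8.13, 7.96 and 7.31 in controls 1 to 4, and 6.28, 6.48, 6.47 and 6.17 in Grb2_cKO 1 to 4. Every Grb2_cKO value lay below every control value, and the difference was -1.55 (SE 0.18, 2.92-fold, adjusted p = 0.00027 in limma). Its twin Mir196a-2 moved the other way. It read 6.39, 6.26, 6.93 and 6.39 in controls and 7.31, 7.64, 7.21 and 8.0 in Grb2_cKO, a difference of 1.05 (SE 0.19, 2.07-fold, adjusted p = 0.00276 in limma). Mir615 rose as well, from 7.02, 7.02, 7.32 and 6.84 to 7.92, 7.84, 8.08 and 8.65, a difference of 1.07 (SE 0.17, 2.11-fold, adjusted p = 0.0014 in limma). With the Y-linked covariate Mir196a-1 passed at -1.61 (adjusted p = 0.0218), while Mir196a-2 at 0.59 (adjusted p = 0.223) and Mir615 at 0.79 (adjusted p = 0.117) did not. With the mean of the erythroid markers as a covariate the Mir196a-1 difference was -0.60 (adjusted p = 0.403). Mir10b did not pass at -0.31 (adjusted p = 0.365), though it passed without control replicate 4 (adjusted p = 0.0216). Mir10a and Mir196b had no probe set of their own. A probe set with the symbols Mir10a and Hoxb4 together cannot be assigned to either gene. It did not pass at -0.98 (SE 0.36, adjusted p = 0.104 over all probe sets in limma). The sources used here do not say whether the microRNA probe sets read the precursor or the longer primary transcript.

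Of the 36 Hox genes, 17 passed the threshold, an adjusted p under 0.05 over all 22180 genes in limma: 8 rose (Hoxa2, Hoxa3, Hoxa4, Hoxa6, Hoxc4, Hoxc5, Hoxc8 and Hoxc10) and 9 fell (Hoxb2, Hoxb3, Hoxb4, Hoxb6, Hoxb7, Hoxb8, Hoxb9, Hoxc9 and Hoxd10). That is 47.2% of the Hox genes, where 28.1% of all genes passed, 13.7% higher and 14.3% lower. The groups did not overlap for 18 of the 36, against 31.2% of all genes. The median difference over the 36 genes was -0.07, and 0.0058 over all genes. Only Hoxb9 among the 36 passed and changed at least 2-fold, as did 1.73% of all genes, and the other 16 called genes had differences between 0.25 and 0.72 in size.

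The difference was above 0 for 16 of the 36 genes and for 51% of all genes, and these 16 were spread unevenly over the clusters. In the Hoxb cluster 7 of 10 genes fell and none rose (median difference -0.43). In the Hoxa cluster 4 of 9 rose and none fell (median 0.23), and in the Hoxc cluster 4 of 9 rose and 1 fell (median 0.13). The Hoxd cluster had 1 of 8 lower and none higher (median -0.17). In 6 of the 13 paralog groups, 2, 3, 4, 6, 8 and 10, at least 1 member rose while another fell. Over the 36 genes the rank correlation between paralog number and difference was -0.08, a description across genes that share libraries and transcripts. No test of the clusters against each other was made.

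**Figure D1:**
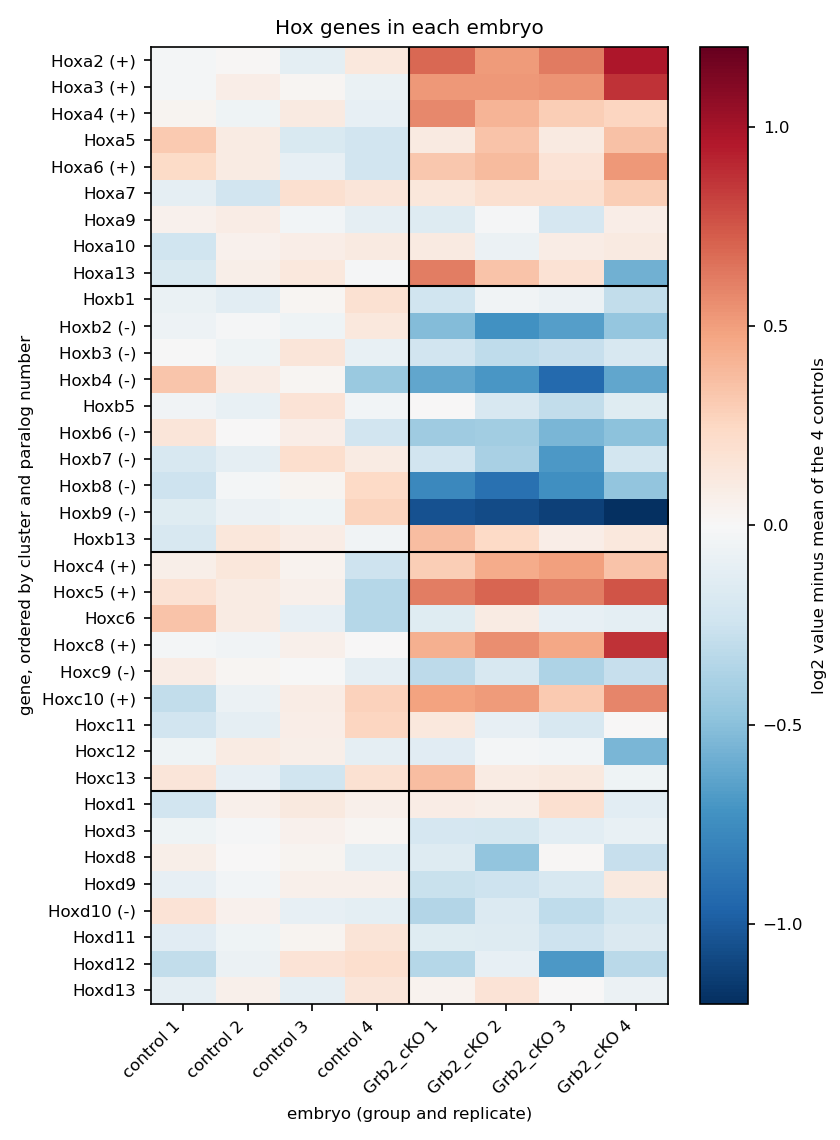
Each cell is the log2 value of a Hox gene (rows, by cluster and paralog number) in an embryo (columns) minus the mean of the 4 controls; (+) and (-) mark genes called higher or lower. The 7 called Hoxb genes are blue in all 4 Grb2_cKO columns, and the called Hoxa genes are red there.

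**Figure D2:**
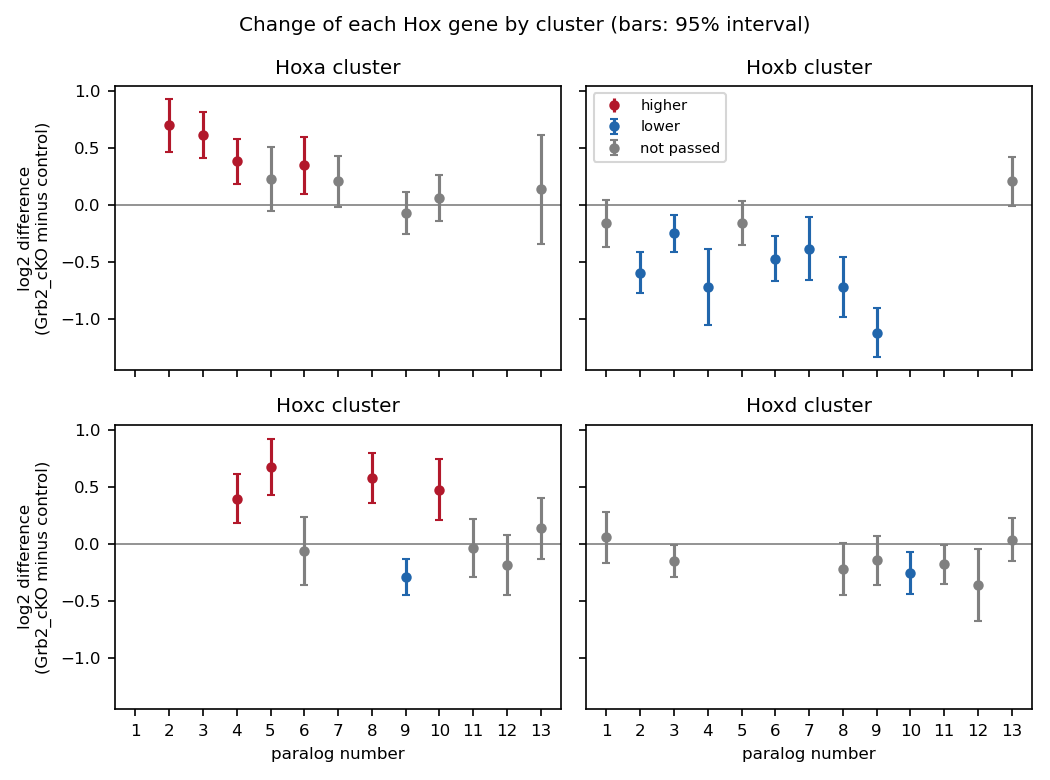
Difference between Grb2_cKO and control on the log2 scale (points) with its 95% interval (bars) for each measured Hox gene, by paralog number in 4 panels for the 4 clusters, n = 4 embryos a group. Hoxb9 at -1.12 is the lowest point and Hoxa2 at 0.70 the highest.

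The largest falls were in the Hoxb cluster. Hoxb9 was 9.88, 9.96, 9.98 and 10.30 in controls 1 to 4 and 8.98, 8.95, 8.90 and 8.79 in Grb2_cKO 1 to 4. The groups lay far apart compared with the spread inside them, and the gene fell 2.18-fold (difference -1.12, SE 0.10, 95% interval -1.34 to -0.91, adjusted p = 8.21e-05 in limma). Mir196a-1, described above, lies between it and Hoxb13.

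Hoxb8 was 7.70, 7.94, 7.99 and 8.20 in controls and 7.18, 7.07, 7.22 and 7.48 in Grb2_cKO, a fall of 1.65-fold (-0.72, SE 0.12, adjusted p = 0.00165 in limma). Hoxb4 was 9.55, 9.30, 9.24 and 8.77 in controls and 8.59, 8.51, 8.29 and 8.59 in Grb2_cKO, also 1.65-fold lower (-0.72, SE 0.15, adjusted p = 0.00549 in limma). For Hoxb4, control replicate 4 lay closer to the Grb2_cKO embryos than to the other controls, though the groups did not overlap. Hoxb4 lies inside the span of Hoxb3 in the RefSeq table, so some probes of the pair could read a shared transcript.

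Hoxb2 was 7.53, 7.57, 7.54 and 7.72 in controls and 7.07, 6.86, 6.93 and 7.13 in Grb2_cKO (-0.59, SE 0.08, adjusted p = 0.00064 in limma). Hoxb6 was 9.75, 9.61, 9.68 and 9.38 in controls and 9.18, 9.19, 9.06 and 9.11 in Grb2_cKO (-0.47, SE 0.09, adjusted p = 0.00318 in limma). Both were below the control range in all 4 Grb2_cKO embryos.

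Hoxb7, the member known from the ureteric bud, was 8.27, 8.35, 8.67 and 8.56 in controls and 8.23, 8.07, 7.77 and 8.24 in Grb2_cKO. The gap between the groups was narrow, with the difference at -0.38 (SE 0.12, 95% interval -0.66 to -0.11, adjusted p = 0.0439 in limma). Hoxb3 fell by 0.25 (SE 0.07, adjusted p = 0.0266 in limma). Leaving out 1 embryo ended both calls in some cases: Hoxb7 missed the threshold without control replicates 2, 3 or 4 or Grb2_cKO replicates 2 or 3, with adjusted p from 0.0370 to 0.1125 over the 8 omissions. Hoxb3 missed it without control replicates 1 or 3 or Grb2_cKO replicates 2 or 3 (adjusted p from 0.0264 to 0.0724 over the 8). Hoxb7 also missed it after quantile normalization (adjusted p = 0.0560) and after centring on array medians (adjusted p = 0.0563).

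Of the remaining Hoxb genes, Hoxb1 stood at -0.16 (adjusted p = 0.232), Hoxb5 at -0.16 (adjusted p = 0.222) and Hoxb13 at 0.21 (adjusted p = 0.143). Hoxb5 had a second probe set, not the one used, which passed at -0.47 (SE 0.08, adjusted p = 0.00562 over all probe sets in limma), so the pair differed in its call though not in direction.

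In the Hoxa cluster the genes that rose lay at the 3′ end. Hoxa2 was 8.73, 8.78, 8.65 and 8.89 in controls and 9.45, 9.27, 9.38 and 9.73 in Grb2_cKO, a rise of 1.62-fold (0.70, SE 0.10, 95% interval 0.47 to 0.93, adjusted p = 0.000927 in limma). Hoxa3 was 8.28, 8.37, 8.32 and 8.22 in controls and 8.82, 8.82, 8.83 and 9.16 in Grb2_cKO (0.61, SE 0.09, adjusted p = 0.000945 in limma). In both genes Grb2_cKO replicate 4 was the highest embryo and no value overlapped the controls.

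Hoxa4 rose by 0.38 (SE 0.09, adjusted p = 0.00867 in limma), and Hoxa6 by 0.35 (SE 0.11, adjusted p = 0.0444). Hoxa6 was the only called member whose groups overlapped, control replicate 1 standing at 10.81 and Grb2_cKO replicate 3 at 10.75, and its exact permutation p was 0.0571. It missed the threshold in 6 of the 8 omissions of an embryo, those of control replicates 2, 3 and 4 and Grb2_cKO replicates 1, 2 and 4, with adjusted p from 0.0221 to 0.109 over the 8. Array weights ended its call as well (adjusted p = 0.0569). Hoxa4, Hoxa5 and Hoxa6 lie inside the span of Hoxa3 in the RefSeq table, so these genes may share reads of a long Hoxa3 transcript. Hoxa5 stood at 0.23 (adjusted p = 0.225) and Hoxa7 at 0.21 (adjusted p = 0.159).

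From Hoxa9 on, no member of that cluster passed. Hoxa9 was 9.40, 9.44, 9.31 and 9.23 in controls and 9.19, 9.33, 9.14 and 9.42 in Grb2_cKO (-0.07, 95% interval -0.26 to 0.11, adjusted p = 0.595 in limma). The values of the groups were interleaved. Hoxa13 stood at 0.14 (SE 0.21, adjusted p = 0.706) and was scattered in Grb2_cKO, at 7.03, 6.76, 6.59 and 5.83 in replicates 1 to 4. Without Grb2_cKO replicate 4 it passed at 0.38 (adjusted p = 0.0466).

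In the Hoxc cluster the risers were spread along the cluster. Hoxc5 was 7.26, 7.18, 7.14 and 6.73 in controls and 7.69, 7.78, 7.70 and 7.83 in Grb2_cKO, a rise of 1.59-fold (0.67, SE 0.11, adjusted p = 0.00165 in limma). Mir615, which lies inside this gene, rose too. Hoxc8 was 9.28, 9.27, 9.37 and 9.31 in controls and 9.74, 9.86, 9.77 and 10.17 in Grb2_cKO (0.58, SE 0.10, adjusted p = 0.00188 in limma). The 4 controls of Hoxc8 lay between 9.27 and 9.37, and all Grb2_cKO embryos stood above them.

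Hoxc4 rose by 0.40 (SE 0.10, adjusted p = 0.0114 in limma). Hoxc9 fell by 0.29 (SE 0.07, adjusted p = 0.0117 in limma) between 2 neighbours that rose, Hoxc8 and Hoxc10. Hoxc6 stood at -0.06 (adjusted p = 0.787), at 10.66 ± 0.29 in controls and 10.60 ± 0.11 in Grb2_cKO (SD, n = 4 each), and its groups overlapped. Hoxc12 stood at -0.18 (adjusted p = 0.293) and Hoxc13 at 0.13 (adjusted p = 0.476).

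**Figure D3:**
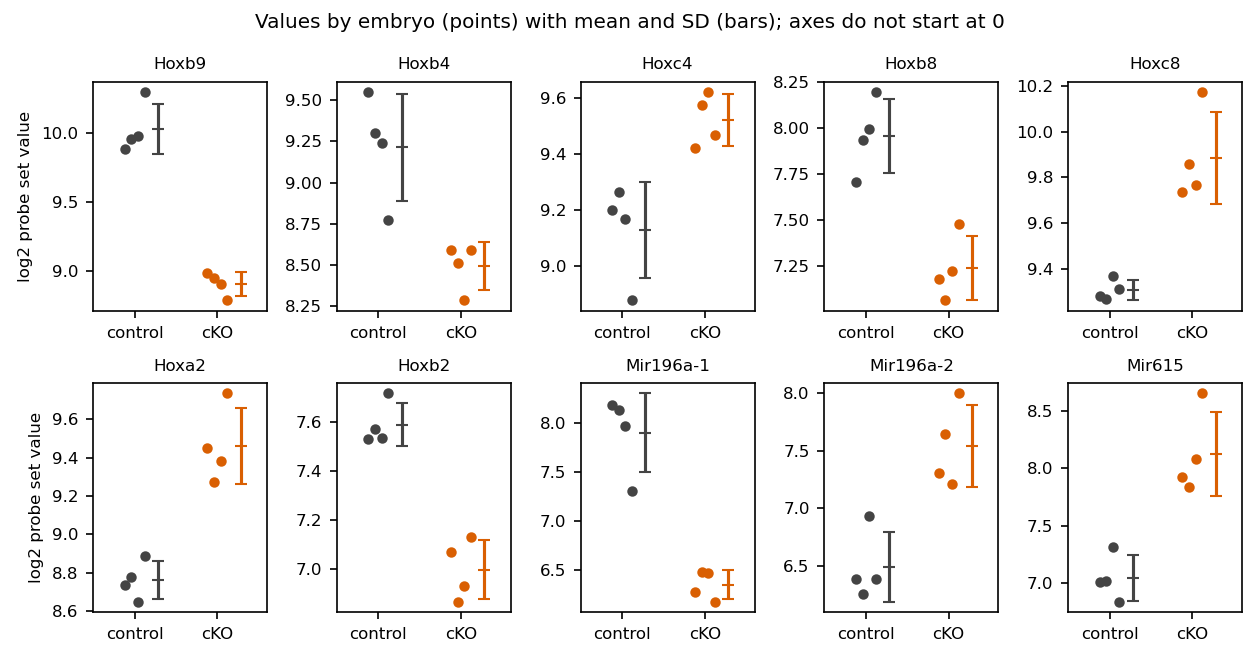
Log2 probe set values of 7 Hox genes and 3 microRNA genes in each embryo (points), with the mean and SD of each group (bars, n = 4); the axes do not start at 0. Hoxb9, Hoxb4, Hoxb8, Hoxb2 and Mir196a-1 are lower in all 4 Grb2_cKO (cKO) embryos than in any control, and Hoxc4, Hoxc8, Hoxa2, Mir196a-2 and Mir615 are higher.

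Paralog groups 10 and 11 are those whose combined loss disturbs the kidney. Hoxd11 was 10.87, 10.96, 11.04 and 11.16 in controls and 10.86, 10.85, 10.76 and 10.83 in Grb2_cKO. The groups did not overlap, but the gene did not pass, at -0.18 (95% interval -0.35 to -0.01, adjusted p = 0.108 in limma). Hoxc11 was 6.52, 6.64, 6.83 and 7.01 in controls and 6.88, 6.66, 6.56 and 6.75 in Grb2_cKO, at -0.04 (95% interval -0.29 to 0.21, adjusted p = 0.844 in limma). These intervals leave room for a small change. A pair of probe sets carried the symbols Hoxa11 and Hoxa11os together and cannot be assigned to either gene. With all probe sets tested in limma, 1 of them passed at -0.35 (adjusted p = 0.0402) and the other did not, at -0.02 (adjusted p = 0.936).

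In group 10, Hoxd10 was 11.09, 10.98, 10.83 and 10.81 in controls and 10.58, 10.76, 10.62 and 10.71 in Grb2_cKO (-0.26, SE 0.08, adjusted p = 0.0413 in limma). Hoxc10 went up, from 8.57, 8.79, 8.95 and 9.14 in controls to 9.34, 9.37, 9.18 and 9.44 in Grb2_cKO (0.47, SE 0.12, adjusted p = 0.0142 in limma). Hoxa10 was 9.71, 10.01, 10.04 and 10.06 in controls and 10.06, 9.89, 10.05 and 10.07 in Grb2_cKO, at 0.06 (95% interval -0.15 to 0.26, adjusted p = 0.705 in limma). So 1 member of group 10 rose, 1 fell and 1 did not pass. Hoxd10 and Hoxd11 overlap in the RefSeq table and may share a transcript. The Hoxd10 call was lost after quantile normalization (adjusted p = 0.0558) and without control replicates 1 or 2 or Grb2_cKO replicates 1, 3 or 4 (adjusted p from 0.0359 to 0.106 over the 8 omissions). With the mean of the erythroid markers as a covariate the Hoxc10 difference turned to -0.24 (adjusted p = 0.583).

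The other Hoxd genes read by a probe set with 1 symbol stayed under the threshold. A probe set with the symbols Hoxd4 and Hoxd3 together cannot be assigned to either gene. It passed at -0.57 (SE 0.11, adjusted p = 0.00913 over all probe sets in limma). Hoxd9 was 8.01, 8.08, 8.17 and 8.17 in controls and 7.84, 7.86, 7.92 and 8.23 in Grb2_cKO (-0.15, 95% interval -0.36 to 0.07, adjusted p = 0.306 in limma). Only Grb2_cKO replicate 4 stood above the controls, and without it Hoxd9 passed at -0.24 (adjusted p = 0.0419). Hoxd3 at -0.15 (adjusted p = 0.101), like Hoxd11, had groups that did not overlap without passing. Hoxd8 at -0.22 (adjusted p = 0.142) passed without Grb2_cKO replicate 3 (adjusted p = 0.0496). Hoxd12 at -0.36 (adjusted p = 0.0877) passed without control replicate 1 (adjusted p = 0.0402), without Grb2_cKO replicate 2 (adjusted p = 0.044) and with array weights (adjusted p = 0.0480). Hoxd1 and Hoxd13 stood at 0.05 (adjusted p = 0.751) and 0.04 (adjusted p = 0.812).

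With the Y-linked covariate 2 of the 17 calls passed in limma, Hoxb9 at -1.07 (adjusted p = 0.0133) and Hoxa2 at 0.81 (adjusted p = 0.0308). They were the only 2 of all 36 Hox genes to pass in that fit, a share near the 5.62% of all genes that passed. All 17 kept their sign. The 15 that were lost were Hoxb2 at -0.54 (adjusted p = 0.0555), Hoxb8 at -0.76 (0.0611), Hoxa3 at 0.59 (0.0612), Hoxb3 at -0.40 (0.0606), Hoxb6 at -0.55 (0.0651), Hoxc5 at 0.60 (0.0950), Hoxb7 at -0.60 (0.105), Hoxc8 at 0.51 (0.109), Hoxb4 at -0.74 (0.127), Hoxa6 at 0.45 (0.208), Hoxc9 at -0.29 (0.215), Hoxc4 at 0.35 (0.248), Hoxa4 at 0.27 (0.311), Hoxc10 at 0.37 (0.323) and Hoxd10 at -0.16 (0.575). Over the 17 genes the median size of the difference was 0.47 without and 0.54 with the covariate, and the median SE was 0.10 without and 0.16 with it. In this fit the comparison leans on a single control, replicate 3, whose Y-linked values were as high as those of Grb2_cKO. The 17 genes were called with replicate 3 among the controls, which favours a place near them. No conclusion is drawn from that place. The scale set the mean of the other 3 controls at 0 and that of the Grb2_cKO embryos at 1. That embryo's median over the 17 genes was 0.04, with a range of -0.99 to 0.45. Set as the only control against the 4 Grb2_cKO embryos, it is a lone sample assumed to vary like the Grb2_cKO embryos, and it gave 1 call, Hoxb9 at -1.07 (adjusted p = 0.0358 in limma), where 1.28% of all genes passed. With the erythroid mean as a covariate Hoxb9 was again the only 1 of the 17 to pass, at -1.57 (adjusted p = 0.0243 in limma). In that fit 15 of the 17 kept their sign. Of all 36 Hox genes 2 passed, Hoxb9 and Hoxd12, where 0.879% of all genes passed.

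**Figure D4:**
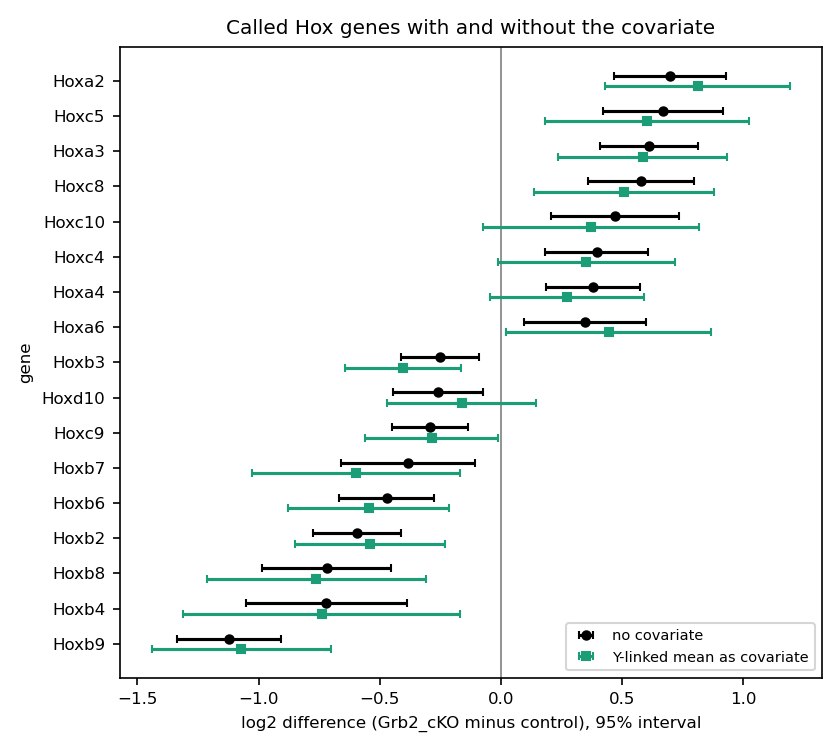
Differences between Grb2_cKO and control on the log2 scale for the 17 called Hox genes, with their 95% intervals (bars, n = 4 embryos a group), without a covariate (black circles) and with the Y-linked covariate (green squares). Every green square lies on the same side of 0 as its black circle, with a wider interval, and Hoxb9 is farthest from 0 in both fits.

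Among the controls, Hox genes also varied in a pattern by number. The ranges of numbers used here were chosen after the values were seen. In paralog groups 4 to 6, control replicate 4 was the lowest control for 8 of 9 genes and control replicate 1 the highest for 6. In groups 9 to 12 the order was turned: control replicate 1 was the lowest for 7 of 11 genes and control replicate 4 the highest for 7. The median of control replicate 4 minus control replicate 1 was -0.46 in groups 4 to 6 and 0.29 in groups 9 to 12. For 21 of the 36 genes the range over the controls was wider than that over the Grb2_cKO embryos. Median distances from the control mean ran in replicate order. Over control replicates 1 to 4 they were 0.18, 0.10, 0.04 and -0.23 in groups 4 to 6. In groups 9 to 12 they were -0.14, -0.03, 0.06 and 0.11. The mean of the 5 measured erythroid markers was 6.78, 6.99, 7.18 and 7.44 in the same order. That of the ureteric epithelium markers was 9.30, 9.37, 9.41 and 9.46. Stroma markers did not run in this order, at 10.54, 10.51, 10.57 and 10.41. The part of these cell types in the pattern was not tested.

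**Figure D5:**
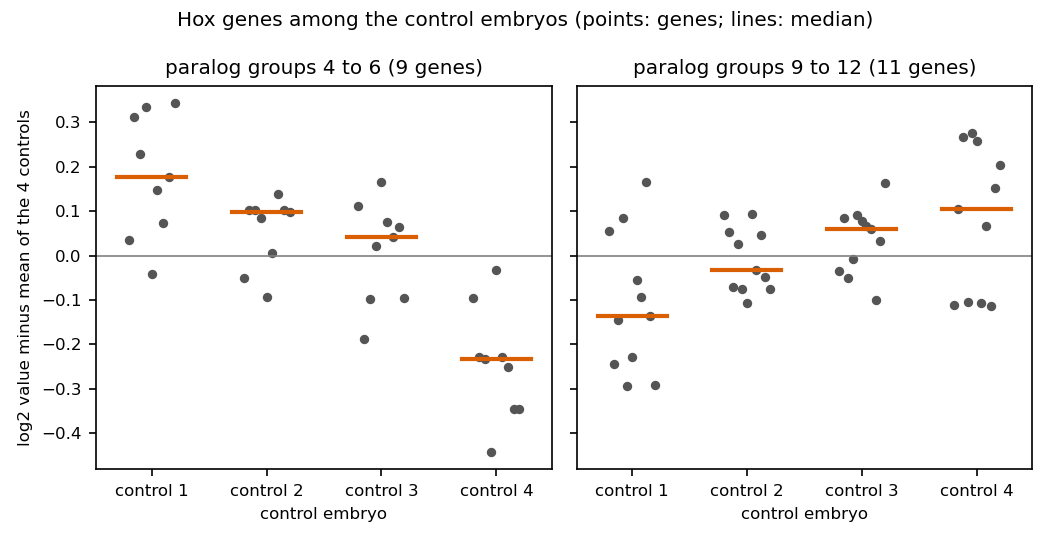
Log2 value of each Hox gene minus its mean over the 4 controls, in each control embryo, for paralog groups 4 to 6 (left, 9 genes) and 9 to 12 (right, 11 genes); points are genes and orange lines medians. In groups 4 to 6 control replicate 4 has a median of -0.23 and control replicate 1 of 0.18, and in groups 9 to 12 they have 0.11 and -0.14.

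In whole kidneys, fewer cells of a type and less RNA per cell cannot be told apart, so the levels of cell type markers are given beside the Hox calls. Beside the 7 of 10 Hoxb genes that fell, 10 of 14 ureteric epithelium markers were lower and none higher, their mean being 9.30 to 9.46 in controls and 8.35 to 8.63 in Grb2_cKO. Of 12 nephron progenitor markers 9 were lower, the list mean going from 9.79 to 9.95 in controls to 8.70 to 9.18. Stroma markers were higher in 10 of 13 cases, the list mean going from 10.4 to 10.6 in controls to 10.9 to 11.1. Ureter mesenchyme markers rose in 4 of 7 cases, the list mean going from 9.33 to 9.56 in controls to 9.89 to 10.2. The markers of the other cell types gave 6 of 8 endothelial, 6 of 8 macrophage and 5 of 5 erythroid genes higher, where 13.7% of all genes were called higher and 14.3% lower. With the Y-linked covariate 7 of the 10 ureteric, 5 of the 9 nephron progenitor and 3 of the 10 stroma calls passed in limma. So did 2 of the 4 ureter mesenchyme, 0 of the 6 endothelial, 3 of the 6 macrophage and 1 of the 5 erythroid calls. Over all genes there were 6227 calls without that covariate and 1246 with it. The part of these cell types in the Hox results was not tested.

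Tissues next to the kidney carry Hox genes of their own. Over all genes 13.7% were called higher and 14.3% lower. Hindgut and bladder markers gave no call in 8, averaging 6.32 to 6.57 over the controls and 6.42 to 6.75 over the Grb2_cKO embryos. Of 9 gonad and adrenal markers 1 was lower, Mc2r, with means of 5.87 to 5.94 in controls and 5.76 to 6.08 in Grb2_cKO. Of 9 spinal cord and somite markers 2 were higher, the muscle regulators Myog at 0.58 (adjusted p = 0.00618) and Myod1 at 0.35 (adjusted p = 0.0268), the list mean being 6.18 to 6.30 in controls and 6.29 to 6.42 in Grb2_cKO. Neither of these muscle genes passed once the Y-linked covariate was in the fit. Of 7 neural crest and neuron markers 2 were higher and 2 lower (Dbh, Stmn2, Elavl4 and Ret, the last also a ureteric gene), with means of 6.83 to 7.11 in controls and 6.89 to 7.18 in Grb2_cKO. Their part in the Hox results was not tested either.

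Of 14 measured genes on a broad list around nephron formation and group 11 Hox genes, 10 fell, 1 rose and 3 did not pass. Their median difference was -0.50, against 0.0058 over all genes, of which 13.7% were called higher and 14.3% lower. Six2, Eya1, Osr1, Sall1, Itga8 and Gdnf were also counted as nephron progenitor markers and Gata3 as a ureteric marker. The counts of these lists are therefore not independent. Gdnf, the growth factor that attracts the ureteric bud, fell by 1.73 (SE 0.11) and Six2, which keeps nephron progenitors undifferentiated, by 2.12 (SE 0.41). The Grb2_cKO embryos were far apart for Six2, at 10.22 and 10.14 in replicates 1 and 2 and 8.37 and 8.44 in replicates 3 and 4, against 11.32 to 11.59 in controls. Eya1 was 11.46, 11.92, 10.49 and 10.50 in Grb2_cKO replicates 1 to 4, the same embryos standing lower. Eya1 and Pax2, activators of Six2 and Gdnf, fell by 1.44 (SE 0.28) and 0.96 (SE 0.14). Hoxd11 and Hoxc11 did not pass as given above, though the groups of Hoxd11 did not overlap. The probe sets that Hoxa11 shares with Hoxa11os stood at -0.35, which passed with all probe sets tested, and -0.02, which did not. The gene that rose was Wt1, at 0.28 (adjusted p = 0.0319 in limma), which missed the threshold in 6 of the 8 omissions of an embryo, those of control replicates 1, 2 and 3 and Grb2_cKO replicates 2, 3 and 4 (adjusted p from 0.0545 to 0.0842 in these 6), and after centring on array medians (adjusted p = 0.0659). Gdnf, Pax2 and Itga8 were the 3 of these 11 calls that passed in limma with the Y-linked covariate. Six2 (adjusted p = 0.124) and Eya1 (adjusted p = 0.116) did not. Calls over all genes went from 6227 to 1246 with that covariate.

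PBX, MEIS and PKNOX proteins bind DNA together with Hox proteins. Of 8 measured genes of these cofactors 3 rose, 1 fell and 4 did not pass, where 28.1% of all genes passed. Meis3 was 7.19, 7.63, 7.54 and 7.53 in controls and 8.25, 8.09, 8.13 and 8.32 in Grb2_cKO (0.73, SE 0.10, adjusted p = 0.000757 in limma). Pknox2 rose by 0.63 (SE 0.10), Meis1, which is also a stromal gene, by 0.39 (SE 0.09), and Pbx4 fell by 0.30 (SE 0.07). None of these 4 passed with the Y-linked covariate (adjusted p from 0.0615 for Meis3 to 0.104 for Pknox2).

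Polycomb proteins keep Hox genes silent and Trithorax proteins keep them active. Of 25 measured chromatin regulators of the clusters 8 fell, 2 rose and 15 did not pass (median difference 0.003), so 10 of 25 were called where 28.1% of all genes were. The genes that fell came from both classes. They included the 3 core subunits of Polycomb repressive complex 2, Eed by 0.59 (SE 0.09), Suz12 by 0.46 (SE 0.10) and Ezh2 by 0.38 (SE 0.08), and its accessory subunit Phf19 by 1.32 (SE 0.15). Wdr5 and Ash2l, which encode subunits shared by the Trithorax-type methyltransferase complexes, fell by 0.38 (SE 0.09) and 0.36 (SE 0.07). Those that rose were Pcgf2 by 0.30 (adjusted p = 0.0180) and Phc2 by 0.35 (adjusted p = 0.0347), subunits of Polycomb repressive complex 1. The acetyltransferase gene Kat6a fell by 0.47 (SE 0.07) and Ctcf, whose protein forms boundaries within the clusters, by 0.50 (SE 0.07). Phf19 was the only 1 of these 10 calls to pass in limma with the Y-linked covariate (adjusted p = 0.0237). Over all genes 6227 calls were made without that covariate and 1246 with it. The Cdx genes, which set Hox expression in the trunk of the early embryo, did not pass, and none of 5 genes on that list did.

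Promoter sequences are shown for Hoxb4 and Hoxc4, paralogs that changed in opposite directions, and for Hoxa2, which rose most. RefSeq (GRCm38.p6) promoters were held for 22 of the Hox genes, of which the first listed was counted for each gene, and the 250 bases before the start were searched on both strands for AGGTCA (a retinoic acid receptor half-site), TGACAG (MEIS), TGATTNAT (Hox with PBX), TTTATG (CDX), CCAAT and GGGCGG. Capitals mark every match, and overlapping or adjoining matches run together. Hoxb4 is chr11:96318017-96318266 (plus strand), Hoxc4 chr15:103034145-103034394 (plus strand) and Hoxa2 chr6:52164832-52165081 (minus strand, printed in the direction of the gene).
Hoxb4: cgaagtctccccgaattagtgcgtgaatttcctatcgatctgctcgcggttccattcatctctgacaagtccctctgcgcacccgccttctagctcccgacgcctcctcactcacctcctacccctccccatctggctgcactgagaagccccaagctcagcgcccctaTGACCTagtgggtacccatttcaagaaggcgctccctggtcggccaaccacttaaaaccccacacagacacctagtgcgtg
Hoxc4: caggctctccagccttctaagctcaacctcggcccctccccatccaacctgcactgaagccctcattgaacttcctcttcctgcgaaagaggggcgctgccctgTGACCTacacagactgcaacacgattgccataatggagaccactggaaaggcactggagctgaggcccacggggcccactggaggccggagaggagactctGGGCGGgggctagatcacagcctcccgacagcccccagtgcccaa
Hoxa2: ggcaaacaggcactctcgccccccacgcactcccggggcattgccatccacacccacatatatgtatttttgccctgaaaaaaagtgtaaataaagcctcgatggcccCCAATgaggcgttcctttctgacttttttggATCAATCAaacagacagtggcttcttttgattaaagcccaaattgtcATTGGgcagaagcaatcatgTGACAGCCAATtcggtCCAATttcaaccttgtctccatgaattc
AGGTCA, read as TGACCT here, was found in both Hoxb4 and Hoxc4 although they moved apart. It was found in 6 of the 22 Hox promoters and in 13.8% of all 27025 promoters. TGACAG was found in 2 of the 22, Hoxa2 and Hoxa3 (16% of all promoters), and TGATTNAT in 1, Hoxa2 (2.99%). TTTATG was found in 5 (11.1%), CCAAT in 13 (34.5%) and GGGCGG in 9 (32.9%). The second promoters held for Hoxd11 (TGATTNAT and GGGCGG) and Hoxa10 (CCAAT) had matches that are not in these counts. A match is a description of these letters, not a binding site.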

How the data were processed

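Kidneys of 4 Grb2_cKO and 4 control embryos of 1 litter were measured, 1 array per embryo. The RNA of an embryo came from its pooled kidneys, 200 ng of it amplified with an Ambion WT kit, per the labels' protocols. The deposited probe set values are on a log2 scale, taken from their range of 1.25 to 14.08. The Transcriptome Analysis Console is listed without a version in the submitters' processing notes. The sources used here do not state background correction, summarization or normalization. No scan dates were used, so a batch could not be tested. Replicates were numbered in record order and pair nothing.

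Gene names came from GEO's annotation of the array, updated by Entrez identifier to GRCm38.p6 RefSeq for 23328 probe sets. Of 41345 probe sets 23521 had 1 symbol, 1814 several (not named) and 16010 none. Of the Hox probe sets 37 had 1 symbol and 7 several. The probe set with the highest mean over 8 arrays stood for a gene. The model was limma 3.58.1 (R 4.3.3), lmFit and eBayes over 22180 genes with Benjamini-Hochberg adjustment and a threshold of 0.05, tested on simulated data. A two-sided exact permutation test over 70 assignments (smallest p 0.0286) was run for each Hox gene. Values in every embryo were given for the 10 largest called differences, groups 10 and 11, Hoxb7, Hoxa9 and Hoxd9, and for microRNA genes and others where they explain a result. Genes of other lists could be named where they passed, and those named were a choice made with their values known. Members, lists and tests were chosen with earlier results of these data known. The alternatives were other normalizations, filters, spread models, array weights, covariates, controls and omissions of an embryo.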

Additional observations from a re-analysis of the deposited data

Results flagged for a closer look

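Within groups of 4 embryos, 3 of 74 sets of values (36 Hox genes and Grb2 in each group) had an embryo whose gap to the nearest other exceeded Dixon's 95% critical value for the share of the whole range. Chance alone gives about 1 in 20. For Hoxa10, control replicate 1 stood at 9.71, below the other controls at 10.01 to 10.06, and Grb2_cKO replicate 2 at 9.89, below the other Grb2_cKO embryos at 10.05 to 10.07. For Hoxa3, Grb2_cKO replicate 4 stood at 9.16, above the others at 8.82 to 8.83. Hoxa3 passed without that embryo as well.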

How the results depend on the processing

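Of 649 values of single Hox genes under alternatives, 544 kept their direction and side of the threshold. Another 70 lost the call, 11 gained one and 24 changed sign. The exact permutation test of the 36 genes is among them, read at an unadjusted p under 0.05 and unable to change a sign. It gave 2 of the gained calls and 1 of the lost ones. With each of the 8 embryos left out in turn, 13 of the 17 called Hox genes passed every time and 14 or 15 passed at a time. The count higher was then 7 to 8, the count lower 7 to 9, the median difference -0.11 to -0.041 and the count over all genes 4894 to 5955. With the Y-linked covariate all genes gave 1246 calls, Hox genes 1 higher and 1 lower, and Grb2 -0.40 (adjusted p = 0.10). With control replicate 3 as the only control all genes gave 285 calls, Hox genes 0 higher and 1 lower in limma, and Grb2 -0.41 (adjusted p = 0.164). With the erythroid mean as a covariate all genes gave 195 calls, Hox genes 0 higher and 2 lower (Hoxb9 and Hoxd12), the median difference was -0.18 and Grb2 stood at -0.48 (adjusted p = 0.253). The erythroid mean was higher in every Grb2_cKO embryo (7.82 to 8.28) than in any control (6.78 to 7.44), and with it 2 calls changed sign, Hoxc10 at -0.24 and Hoxd10 at 0.0071. Genes not called that changed sign with that covariate were Hoxa10 at -0.21, Hoxa13 at -0.30, Hoxa7 at -0.11, Hoxa9 at 0.037, Hoxb13 at -0.094, Hoxc6 at 0.58, Hoxd1 at -0.13, Hoxd13 at -0.23, Hoxd8 at 0.18 and Mir10b at 0.66. With the Y-linked covariate Hoxa10 stood at -0.029, Hoxc6 at 0.035 and Hoxd1 at -0.068, and against control replicate 3 alone at -0.025, 0.031 and -0.065. Omitting an embryo turned the sign of uncalled genes only, with ranges over the 8 omissions of -0.022 to 0.10 for Hoxa10, -0.18 to 0.051 for Hoxc6, -0.023 to 0.12 for Hoxd1, -0.12 to 0.046 for Hoxc11, -0.021 to 0.38 for Hoxa13 and -0.0088 to 0.084 for Hoxd13. The cause of these changes was not tested. No scaling moved the median of all genes by more than 0.1. No paired analysis was possible because the replicate numbers were given in record order and pair no embryos. Beside the threshold on the adjusted p, the counts at an unadjusted p under 0.05 for the 0 higher calls were 8 against control replicate 3 and 5 with the erythroid covariate. Depth does not apply to arrays, and their number limits what can be seen.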

Other observations

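When all 41345 probe sets were tested in place of 1 per gene, Hoxb3 (adjusted p = 0.0541), Hoxd10 (adjusted p = 0.0771), Hoxb7 (adjusted p = 0.0817) and Hoxa6 (adjusted p = 0.0823) missed the threshold in limma. Of the 7 Hox probe sets that carry several gene symbols and were left out, 4 passed when all probe sets were tested in limma. Their differences were above 0 for 2 of these 4 and below 0 for 2. The share of all 41345 probe sets that passed is not given here, so this count is only a description. Of 16 measured genes within or beside the clusters, 3 rose, 4 fell and 9 did not pass, the microRNA genes included. Over all genes 28.1% passed. Calcoco1 next to Hoxc rose by 0.68 (SE 0.09, adjusted p = 0.000507), Mtx2 and Lnpk next to Hoxd stood at -0.45 (adjusted p = 0.0259) and -0.27 (adjusted p = 0.0103), and Skap1 next to Hoxb at -0.45 (adjusted p = 0.0110), each from the fit over all genes in limma. None of these 4 passed with the Y-linked covariate, where they stood at 0.59 (adjusted p = 0.0505), -0.24 (adjusted p = 0.560), -0.25 (adjusted p = 0.232) and -0.46 (adjusted p = 0.177), in the same order. Of the antisense and other genes within the clusters that had a probe set, Hotair stood at 0.13 (adjusted p = 0.325), Hoxaas3 at 0.21 (adjusted p = 0.0660) and Hoxd3os1 at -0.18 (adjusted p = 0.0952). Evx1 and Evx2, homeobox genes at the ends of Hoxa and Hoxd, stood at 0.08 (adjusted p = 0.428) and 0.05 (adjusted p = 0.744).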
